A study of Mus musculus with 4 samples.

Results

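The cells described here carried hashtag tags 5, 6, 7 or 8 in the first of 2 single-cell RNA sequencing experiments on mouse T-cell progenitors, and the comparison set tags 7 and 8 against tags 5 and 6. A hashtag is an antibody-borne DNA label put on one culture before the cultures are mixed and loaded on a droplet device together. A cell was kept with at least 500 genes and under 10% mitochondrial counts. It was given the tag with the highest count, provided that count was at least 50 and at least 3 times the second highest. The 4 tags held 3913 of the 8797 tagged cells of the experiment and of 17132 in both experiments, with 2024 cells in tags 5 and 6 and 1889 in tags 7 and 8. The tags were numbered in the order of the deposited columns, whose names are these 15-base sequences and nothing else. They are shown because they are the only identity that the files give the 4 cultures:
Tag 5: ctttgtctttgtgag
Tag 6: tatgctgccacggta
Tag 7: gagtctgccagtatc
Tag 8: tatagaacgccaggc
Any pair of the 8 tag sequences differed at 7 or more of the 15 positions. The pairing of tags was chosen by their measured expression levels, Runx1 among them, with earlier results of these data in view, so every difference given here is a description and none carries a test.

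Bone-marrow progenitors of Bcl2 transgenic mice had been grown on OP9-Dll1, a stromal feeder line that presents a Notch ligand, with IL-7 and Flt3-ligand at 10 ng/ml each. The labels give 4 to 5 days of culture for this experiment, vector delivery on day 2, and phase 1 T progenitors with high cKit. The design names 2 kinds of perturbation. In one, cells of B6.Bcl2 mice aged 8 to 10 weeks received MSCV-Runx1-mCherry or MSCV-empty-mCherry and were harvested on day 4 or 6. In the other, cells of B6.Cas9;Bcl2 mice, whose age is not given, received E42 vectors with guides against Runx1 and Runx3 (3 guide pairs for each gene) or with control guides against luciferase, and were harvested on day 5 or 8. Live, lineage-negative, CD45-positive cells that carried the vector's reporter were sorted, each replicate got its own hashtag, and equal numbers were pooled. The labels tie no tag to a vector, a guide set, a day or an animal, so no condition is stated for any tag. All groups named share the Bcl2 transgene, the vector delivery and the feeder, and a Runx1 or Bcl2 count may come from the mouse gene, a vector or the transgene.

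Runx proteins are transcription factors that bind DNA together with the partner subunit Cbfb and act through much of blood development. In the thymus, progenitors under Notch signalling switch on Tcf7, Gata3 and then the genes of the T-cell receptor complex, while genes of stem cells and of other lineages are turned down. Il2ra, the alpha chain of the IL-2 receptor, marks the step after the earliest progenitor stage.

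Tags 5 to 8 held 20473455, 28218043, 22194556 and 14502385 unique molecular identifiers (UMIs, counts of single captured transcripts), and their median cell held 23086, 24777, 18058 and 20809. Cells of tags 7 and 8 were thus shallower than those of 5 and 6. The median mitochondrial share lay between 4.60% and 4.89% in the 4 tags. The 4 cultures shared 1 droplet run, so free RNA in the droplets was common to them. Of the barcodes of tags 5 to 8, 16 also occurred in the second experiment. Kit, the gene of cKit, had a UMI in 24.5% to 27.2% of cells of each tag after every cell was thinned to 5000 UMIs, and Il2ra had one in 66.7%, 60.1%, 56.6% and 53.8% of cells of tags 5, 6, 7 and 8.

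UMIs were summed over the cells of a tag and divided by the tag's total and multiplied by 1e+06 (counts per 1e+06 UMIs, CPM). The quantity compared throughout is the nearest-tag ratio, the lower level of one side over the higher level of the other, so a ratio above 1 means that the sides did not overlap. A gene counted as higher or lower where this ratio was at least 1.5 and the mean over tags 5 to 8 was at least 5 CPM, which 8829 genes reached. A gene could pass that mean through its high side alone. By this rule 235 genes were higher in tags 7 and 8 (2.66% of those measured) and 108 were lower (1.22%). A ratio of 2 or more was reached by 95 higher and 29 lower genes, and one of 3 or more by 32 and 6. On the high side Slc39a8 lay just inside the threshold at 1.502 and Tmem109 just outside at 1.499. Without the size threshold, the sides did not overlap for 2606 genes in the higher direction (29.5%) and 3085 in the lower (34.9%).

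The spread inside a side gives the scale for these counts. Tags 5 and 6 differed by 1.5-fold or more in either direction for 156 genes (1.77%), and tags 7 and 8 for 203 (2.3%). Across the sides, single pairs of tags differed that much for 582 genes (6.59%, tags 6 and 8) to 806 genes (9.13%, tags 6 and 7). Each pair across the sides therefore held more such genes than either pair inside a side. The tags were paired by their levels, so this order can follow from the pairing itself.

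**Figure D1:**
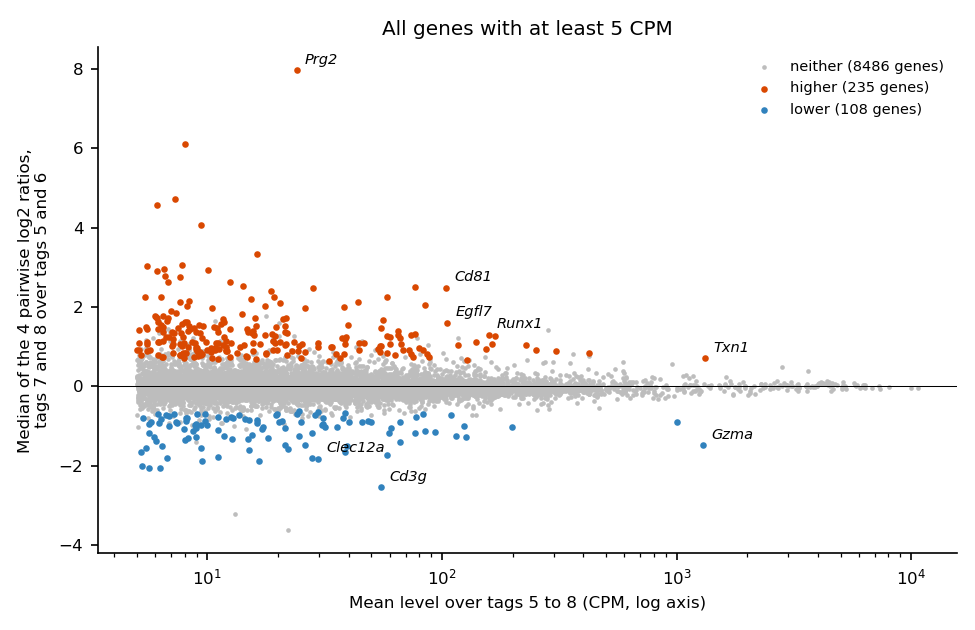
Each point is 1 of the 8829 genes measured. The horizontal axis is the mean level over tags 5 to 8 in CPM on a log axis, and the vertical axis is the median of the 4 pairwise log2 ratios of tags 7 and 8 over tags 5 and 6. Orange points are the 235 higher genes, blue points the 108 lower genes and grey points all others. Most coloured points lie at mean levels under 100 CPM, and Gzma and Txn1 are among the few above 1000 CPM.

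Among the Runx genes, Runx1 stood apart. Runx1 (ENSMUSG00000022952, chr16:92601466-92826074 in GRCm38.p6) had 96.5 CPM in tag 5, 85.8 in tag 6, 240.8 in tag 7 and 210.0 in tag 8. Both high tags were above both low ones, and the nearest-tag ratio was 2.18 with an exact 95% interval of 2.06 to 2.30 (this and later intervals cover counting error only, not the spread between cultures). After thinning, a Runx1 UMI was found in 36.1% and 31.9% of cells of tags 5 and 6 and in 64.2% and 59.6% of cells of tags 7 and 8, against 16.6% in the lowest tag of the run. Since the run shared its free RNA, that lowest share bounds what free RNA added. Without thinning the shares were 80.7%, 78.7%, 90.7% and 91.3%. Runx2, a relative best known from bone, had 23.0 and 25.8 CPM against 37.1 and 37.4, a nearest-tag ratio of 1.44 that fell short of the threshold. Runx3, the relative that acts in cytotoxic T cells, had 170.7, 171.2, 181.2 and 179.3 CPM, and its ratio of 1.05 had an interval of 0.998 to 1.10. Cbfb lay between 60.0 and 65.0 CPM in the 4 tags. Because the level of Runx1 was known when the sides were drawn, its difference is part of how the comparison was made.

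**Figure D2:**
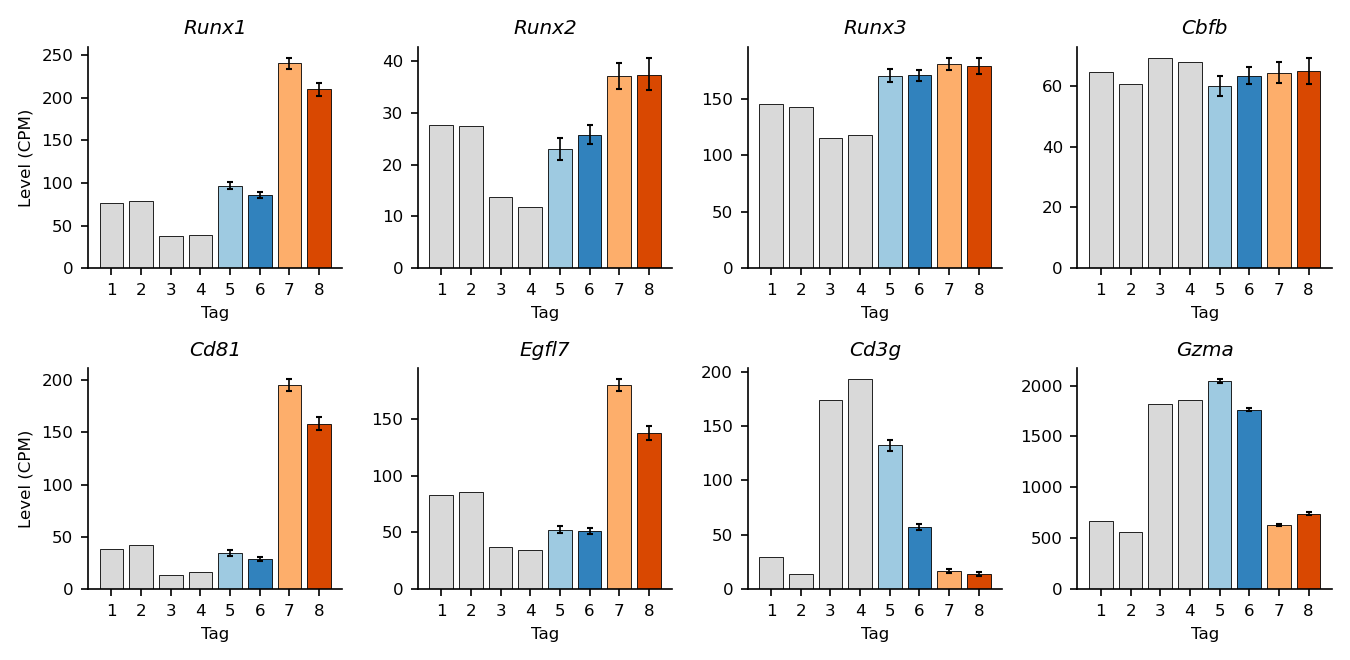
Levels of 8 genes in CPM in each of the 8 tags of the experiment, one bar a tag, with each vertical axis starting at 0. Tags 5 to 8 are coloured and carry exact 95% Poisson intervals, and tags 1 to 4 are grey and drawn without intervals. Runx1, Cd81 and Egfl7 are higher in tags 7 and 8 than in all other tags, Cbfb is nearly level, and Cd3g and Gzma are high in tags 3 to 6.

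Among genes of at least 20 CPM, Cd81, Capg and Ms4a4b had the highest ratios on the high side after Prg2. Cd81, a tetraspanin that organises receptors in the membrane, had 34.4 and 28.7 CPM in tags 5 and 6 and 195.7 and 158.5 CPM in tags 7 and 8. The sides were far apart (nearest-tag ratio 4.61, interval 4.24 to 5.02). After thinning, 13.4% and 11.8% of cells had a Cd81 UMI in tags 5 and 6 and 58.7% and 52.5% in tags 7 and 8, against 5.54% in the lowest tag. Without thinning the shares were 38.5% and 34.5% against 86.2% and 83.8%. On either count a Cd81 UMI was found in most cells of tags 7 and 8 and in a minority of tags 5 and 6. Capg, which caps actin filaments, had 23.2 and 22.3 CPM against 156.9 and 105.6 (ratio 4.54), and Prdx4, a peroxidase of the endoplasmic reticulum, had 23.2 and 17.4 against 109.8 and 82.5 (ratio 3.56). Ms4a4b, a membrane protein of lymphocytes, had 8.0 and 9.3 CPM against 54.3 and 41.7 (ratio 4.48). In these genes tag 7 was above tag 8. Tags 5 and 6 were closest to each other for Capg and furthest apart for Prdx4.

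Rgs1, a brake on G-protein signalling, reached a ratio of 3.36, and Id3, an inhibitor of E-protein transcription factors, reached 3.04. Ifi209, of the interferon-inducible Ifi200 family, reached 3.28. Egfl7, a secreted protein of endothelial and progenitor cells, had 52.6 and 51.1 CPM in tags 5 and 6 and 180.3 and 137.8 in tags 7 and 8 (ratio 2.62). Cox4i2, an alternative subunit of cytochrome c oxidase, had 25.2 and 41.9 CPM against 109.4 and 163.8 (ratio 2.61), and was the one of this pair that was higher in tag 8 than in tag 7. Slfn2 (2.57), Arid5b (2.49), Nedd9 (2.38), Ifi27l2a (2.74) and the stem-cell homeobox factor Meis1 (2.80) completed the highest 15 genes of at least 20 CPM, with Prg2.

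Prg2, the major basic protein of eosinophil granules, is given by its cells. Tags 5 and 6 held 1 and 7 Prg2 UMIs. Tag 7 held 996, of which 2 cells carried 622 and 353, and tag 8 held 739, of which 1 cell carried 723. Other mast-cell and basophil genes differed in how far they were concentrated in single cells. Cd200r3, a receptor of basophils and mast cells, had a UMI in 5 cells of tag 5 and 5 of tag 6, but in 133 cells of tag 7 and 75 of tag 8, and no cell held more than 18. Hdc, which makes histamine, had 3.13 and 3.76 CPM against 24.24 and 18.69, and 81.2% of its tag 7 UMIs were in the top 1% of cells. Its ratio turned to 0.27 when cells with markers of other lineages were left out. Those markers include the haemoglobin gene Hbb-bt, at 2173.7 to 3283.6 CPM in the 4 tags, and 68 to 222 cells a tag remained. With Hbb-bt not counted, 322 to 916 cells a tag remained and the ratio of Hdc stayed at 1.5 or more. Prss34 had no UMI in tag 8 and 448 in tag 5, of which 447 were in 1 cell. Cpa3, a mast-cell protease, had overlapping sides (185.4, 197.2, 175.3 and 204.1 CPM), and the basophil protease Mcpt8 had a ratio of 1.06 in the low direction.

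**Figure D3:**
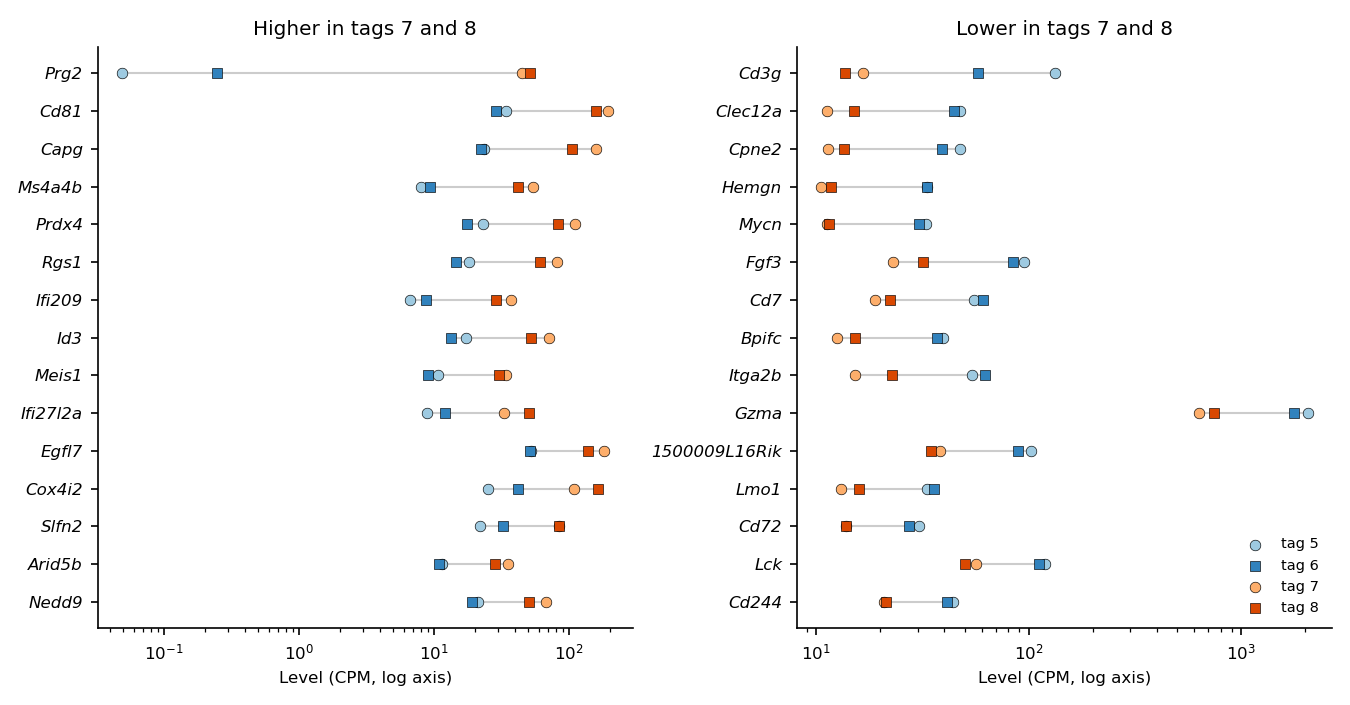
Levels in CPM (log axis) of the 15 genes with the largest nearest-tag ratio in each direction among genes of at least 20 CPM. Each row is a gene, ordered by its ratio, with circles for tags 5 and 7 and squares for tags 6 and 8, blue for tags 5 and 6 and orange for tags 7 and 8. In each row the blue and orange symbols do not overlap. Prg2, at the top left, rests on 3 cells.

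On the low side Cd3g had the largest ratio among genes of at least 20 CPM. Cd3g, a chain of the T-cell receptor complex, had 132.2 CPM in tag 5, 57.4 in tag 6, 16.7 in tag 7 and 13.7 in tag 8. Its ratio was 3.44 (interval 3.07 to 3.87), yet tags 5 and 6 themselves differed by more than a factor of 2. It was found in a minority of cells: 182 of 886 cells in tag 5 and 42 of 691 in tag 8 had a Cd3g UMI. After thinning the shares were 13.9%, 9.55%, 3.26% and 3.24% in tags 5 to 8, against 3.22% in the lowest tag of the run. The Cd3g shares of tags 7 and 8 thus lay near the lowest of the run, so this measure does not bound the part of free RNA in them. In tag 7 the 370 Cd3g UMIs lay in 66 cells, and single cells held 47 and 37. The top 1% of cells held 72.2% of the Cd3g UMIs in tag 7 and 63.6% in tag 8. The part of free RNA in Cd3g was not tested. Gzma, the protease granzyme A, had 2049.7 and 1762.7 CPM against 630.5 and 741.0 (ratio 2.38, interval 2.33 to 2.43). After thinning, 68.2% and 63.3% of cells in tags 5 and 6 had a Gzma UMI against 27.1% and 29.1% in tags 7 and 8. Tag 7 was the lowest tag of the run for that share, so this measure gives no bound on free RNA below the shares of tags 7 and 8. After thinning, cells of tags 7 and 8 with an Il2ra UMI had 951.5 and 1265.6 CPM of Gzma. Those without one had 30.0 and 28.0 CPM. The part of free RNA was not tested. Lck, the kinase that starts signalling from the receptor, had 119.1 and 111.4 CPM against 56.6 and 50.0 (ratio 1.97), and Cd7, an early T and NK surface antigen, had 55.4 and 61.1 against 18.8 and 22.3 (ratio 2.48).

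Clec12a, an inhibitory lectin receptor, had 47.3 and 44.6 CPM against 11.3 and 15.03 (ratio 2.97). Mycn, of the Myc family, had 32.9 and 30.5 against 11.2 and 11.4 (ratio 2.67), with the tags of each side close together. Fgf3, a growth factor gene, had 94.9 and 84.1 against 23.0 and 31.6 (ratio 2.66). Itga2b, the integrin chain of megakaryocytes and early progenitors, reached 2.39, Lmo1, a LIM-only regulator known from T-cell leukaemia, 2.10, Cd72 1.97 and the NK receptor Cd244 1.94. Cpne2 (2.92), Hemgn (2.80), Bpifc (2.45) and 1500009L16Rik (2.31) were the others of the 15. For each of the 15 but Cd3g, the lowest share of cells in the run after thinning was in tag 7 or 8. For these genes too, the share therefore gives no bound on free RNA below the low side, and the part of free RNA was not tested. Some low-side levels differed by Il2ra state, in either direction. Lmo1 had 2.7 and 2.2 CPM in cells of tags 7 and 8 with an Il2ra UMI after thinning, and 23.3 and 28.7 in those without. Fgf3 had 28.8 and 45.4 CPM in cells with an Il2ra UMI, and 5.9 and 8.9 in those without.

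The shares of all measured genes that were higher (2.66%) and lower (1.22%) stand beside each list's counts below. Of the 31 genes listed for the T-cell receptor complex, its signalling and early T surface antigens, 19 were measured, of which 3 were lower (Cd3g, Lck and Cd7, or 15.8%, against 1.22% of all) and 1 was higher (5.26%, against 2.66%). The higher one was Dntt, the enzyme that adds bases at receptor joints, with 34.8 and 21.7 CPM against 110.5 and 53.4 (ratio 1.54). Its level in tag 8 was nearer to that in tag 5 than to that in tag 7, and it lost its call without the 5 richest cells of each tag or after thinning. The constant-region transcripts did not move as one group. Trbc1 had 458.5, 398.0, 352.5 and 293.7 CPM, with non-overlapping sides (ratio 1.13), and Trbc2 had 893.0, 692.9, 1067.5 and 762.0 CPM, with overlapping sides. The median of the list was -0.10 on the log2 scale, beside -0.015 for all genes measured.

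None of the 12 measured T-lineage transcription factors passed the threshold. Tcf7 came closest on the low side, with 174.0 and 161.3 CPM against 108.8 and 95.3 (ratio 1.48). Tox came closest on the high side, with 21.1 and 19.2 CPM against 42.3 and 31.5 (ratio 1.49). Gata3 had overlapping sides between 56.3 and 65.2 CPM, and Bcl11b, the factor of commitment to the T lineage, had 25.5 and 16.1 CPM against 15.4 and 9.86, a ratio of 1.05 in the low direction. Of the 7 measured Notch receptors and Notch-induced genes none passed either. Nrarp, a feedback inhibitor of Notch, had 24.4 and 27.2 CPM against 46.1 and 39.4 (ratio 1.45), while Hes1, a direct target, had 61.2 and 58.3 against 48.3 and 46.7 (ratio 1.21 in the low direction). These Notch-induced genes thus differed in opposite directions.

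Among 22 measured factors and receptors of stem and progenitor cells, 4 were higher (18.2%, against 2.66% of all genes) and 2 lower (9.09%, against 1.22%). Cd34, a sialomucin of progenitors, had 92.5 and 118.6 CPM in tags 5 and 6 and 226.4 and 214.0 in tags 7 and 8 (ratio 1.80). Meis1, Id1 (ratio 1.75) and Gata2 (2.16, from 2.15 and 3.58 CPM to 10.90 and 7.72) were the other higher members. Mycn and Gfi1b (ratio 1.57) were the lower ones. The list's median log2 difference was 0.36, and 15 of its members were higher in all 4 pairs of tags, as were 29.5% of all genes measured.

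The innate lymphoid and NK list went both ways: of 17 measured members, Klrd1, Il18r1 and Id2 were higher, and Gzma, Gzmb and Zbtb16 lower (17.6% each way, against 2.66% and 1.22% of all genes). Klrd1, which encodes the NK receptor chain CD94, had 5.08 and 6.70 CPM against 38.97 and 24.06 (ratio 3.59). Zbtb16, the innate lymphocyte factor PLZF, had 7.57 and 9.14 CPM against 2.66 and 4.41 (ratio 1.72), a call lost after thinning. Gzmb, the protease granzyme B, had 154.3 and 201.6 CPM against 56.1 and 95.6 (ratio 1.61). Its ratio turned to 0.24 without cells with markers of other lineages, Hbb-bt among them. With Hbb-bt not counted, the ratio of Gzmb was still under 1.5, but its median difference kept its direction. The receptor adaptors Fcer1g (355.5, 329.8, 223.9 and 238.0 CPM) and Tyrobp (420.5, 496.9, 522.4 and 609.8 CPM) lay in opposite directions, neither past the threshold.

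Growth-factor and cytokine receptors and their feedback inhibitors had 7 higher members of 23 measured (30.4%, against 2.66% of all genes) and 1 lower (4.35%, against 1.22%). The higher ones included all 4 members of the cytokine-inducible inhibitor family in the list. Socs2 had 42.4 and 32.1 CPM against 107.3 and 77.2 (ratio 1.82), Cish 24.5 and 20.1 against 61.0 and 44.1 (1.80), Socs3 6.30 and 6.34 against 11.40 and 12.07 (1.80), and Socs1 59.9 and 65.1 against 106.6 and 114.2 (1.64). The receptors Il6ra (2.42), Ifngr2 (2.37) and Csf2rb (1.53) were also higher, and Il12rb2 (1.68) was lower. Il2ra itself had 483.9, 417.3, 495.2 and 430.1 CPM, and Il7r, the receptor for the IL-7 in the medium, 26.5, 17.8, 34.7 and 28.0 CPM. For Il2ra the sides overlapped.

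Of 16 measured homing and adhesion genes, Cd81, its fellow tetraspanin Cd53 (87.0 and 88.9 CPM against 204.6 and 180.7, ratio 2.03) and Klf2, a factor for lymphocyte egress (6.94 and 6.13 against 39.97 and 24.20, ratio 3.49), were higher (18.8% of the list, against 2.66% of all genes). Cxcr4, a chemokine receptor of progenitors, was lower at 36.1 and 35.2 CPM against 20.3 and 23.3 (ratio 1.51), the single lower member (6.25%, against 1.22%). Of 10 measured Bcl2 family genes only Bcl2l11, which encodes the death activator Bim, passed (10.0%, against 2.66% of all genes higher), at 13.8 and 15.6 CPM against 35.9 and 28.5 (ratio 1.82). Bcl2 counts, which may include the transgene, were 160.9 and 135.3 against 111.9 and 97.4 (ratio 1.21 in the low direction).

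No gene of DNA synthesis passed the threshold, but they lay together. Of 21 S-phase genes 19 were lower in tags 7 and 8 in all 4 pairs, where 34.9% of all genes measured were, and the list's median log2 difference was -0.19. Dut had 688.5 and 701.7 CPM against 557.2 and 588.1, and Mcm3, a subunit of the replication helicase, 303.0 and 305.7 against 240.6 and 255.8. The exceptions were Ccne1 and Ccne2. Genes of G2 and mitosis did not share this: 8 of 20 were lower and 4 higher in all 4 pairs, with a median of -0.05. No member of the 18 measured glycolysis genes, 13 D-cyclin, kinase and inhibitor genes, 80 cytosolic ribosomal protein genes or 13 mitochondrial genes passed in either direction.

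**Figure D4:**
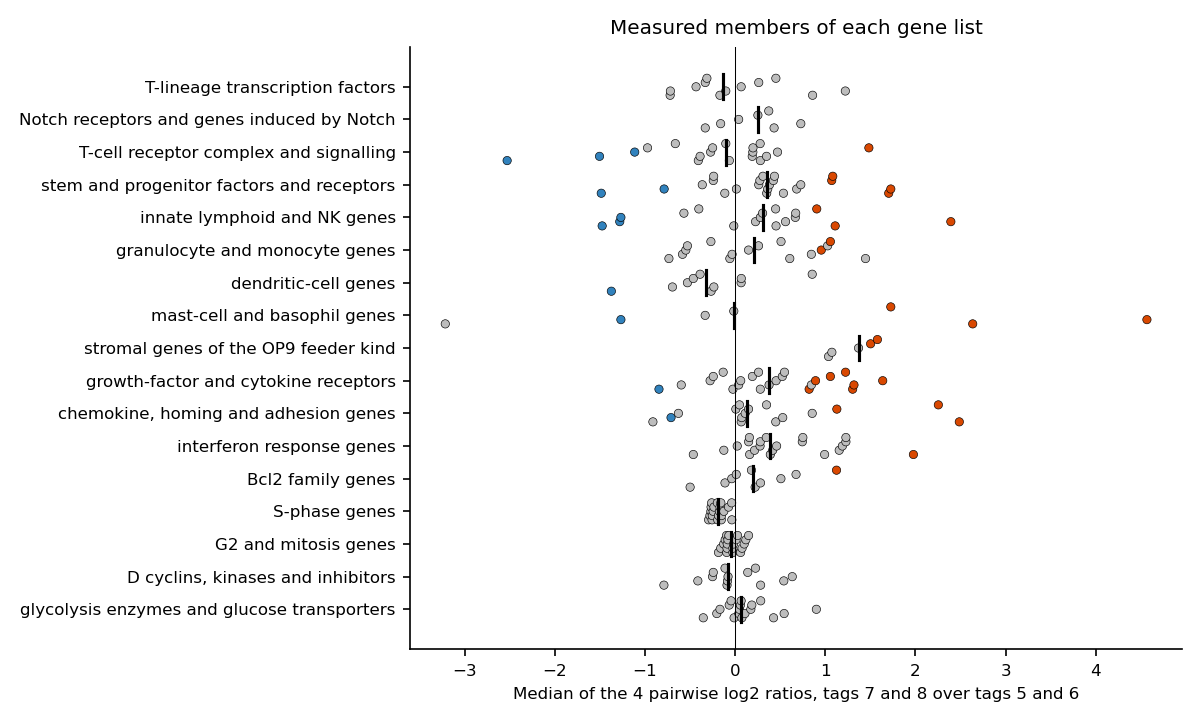
Each point is a measured gene of the list named on the left, placed by the median of its 4 pairwise log2 ratios of tags 7 and 8 over tags 5 and 6. Orange points were higher, blue points lower and grey points neither by the 1.5-fold rule, and black bars mark the median of each list. S-phase genes form a tight group left of 0, while stem and progenitor, innate and cytokine-receptor lists hold points on both sides.

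Some gene groups split the cultures inside each side instead. All 21 measured interferon response genes were higher in tag 6 than in tag 5 and also higher in tag 8 than in tag 7. Of all genes measured, 27.1% were. By 1.5-fold or more in both, 16 of the 21 were higher (76.2%, against 0.77% of all genes). Iigp1, an interferon-induced GTPase, had 17.4, 76.4, 41.2 and 177.4 CPM in tags 5, 6, 7 and 8. Its highest levels were thus in tags 6 and 8. Between the sides only Ifi27l2a passed (4.76% of the list, against 2.66% of all genes higher). Genes of MHC class II, which presents antigen, were also higher in tags 6 and 8, with H2-Aa at 25.3, 166.0, 20.8 and 118.1 CPM and UMIs in 111 of 886, 620 of 1138, 119 of 1198 and 306 of 691 cells. The neutrophil gene S100a8 was high in tags 5 and 8 (89.1, 12.6, 11.7 and 91.6 CPM), where single cells held 1747 and 731 of its UMIs.

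Markers of other cell types were read beside these results. Summed over the list, dendritic-cell genes had 532.1 and 1404.9 CPM in tags 5 and 6 and 414.8 and 1181.5 in tags 7 and 8, with 1 of 10 measured genes lower (Itgax; 1.22% of all genes were), and granulocyte and monocyte genes 826.1, 708.1, 555.3 and 1044.5, with 2 of 16 higher (Fcgr3 and Csf2rb; 2.66% of all genes were). Both sums overlapped between the sides. Mast-cell and basophil genes summed to 453.8 and 505.8 CPM against 385.9 and 402.1, although 3 of 7 were higher and 1 lower, against 2.66% and 1.22% of all genes. Of the B-lineage genes only Cd79b and Ighm were measured and neither passed, and Pax5 had at most 8 UMIs in any of the 4 tags. The 9 listed stromal genes summed to 42.2 and 16.1 CPM against 64.3 and 61.9. Of the 5 measured, Sparc and Timp3 were higher (40.0%, against 2.66% of all genes). The ratio of Sparc turned to 0.26 under stricter cell filters, while the collagen Col1a1 had UMIs in 9, 3, 11 and 2 cells. Timp3 was spread wider, with a UMI in 6.43%, 5.10%, 11.2% and 10.6% of cells. The only mature T-cell marker measured, Ccl5, was higher at 34.5 and 51.1 CPM against 82.8 and 126.2 (ratio 1.62), where 2.66% of all genes were higher. Its ratio fell under 1.5 in cells with an Il2ra UMI after thinning. The other listed markers had means under 5 CPM. In tags 5 to 8 Cd8a had 1, 4, 1 and 5 UMIs, Trac 1, 9, 20 and 22, and Ly6c2 106, 109, 49 and 70. The part of these markers in the other differences was not tested.

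Most called genes did not rest on a few cells. Of the 235 higher genes 32 had over 25% of the UMIs of a high tag in its top 1% of cells, and so had 3 of the 108 lower genes. With the 5 cells richest in the gene left out of each tag, 211 of the 235 and 104 of the 108 still met both the ratio and the level of the rule, and 228 and 107 met the ratio alone.

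The tags also differed in the share of cells with Il2ra, so each difference was read within cells with and without an Il2ra UMI after thinning. The sides of 228 of the 235 higher genes did not overlap in Il2ra-positive cells and of 211 in Il2ra-negative cells, and of the 108 lower genes 104 and 100 did not. A ratio of at least 1.5 was kept by 192 and 153 of the higher genes and by 74 and 63 of the lower genes. These genes were called on the same cells before the split, so their retention was largely set in advance and is no separate support. In all cells together the sides did not overlap for 29.5% of all genes measured in the higher direction and 34.9% in the lower. The shares over all genes within each Il2ra state are not given here. In positive cells no called gene had its median difference reversed, and in negative cells 3 of the higher genes did. Cd81 had a ratio of 5.04 in positive and 4.86 in negative cells, and Runx1 2.95 and 2.00. Gzma differed in size between the 2 kinds of cells: it had 3030.1 and 2955.9 CPM against 951.5 and 1265.6 in positive cells (ratio 2.34), and 524.9 and 394.6 against 30.0 and 28.0 in negative cells (ratio 13.1). Tcf7 likewise had ratios of 1.42 and 3.60, and Cd3g, in the other order, 3.65 and 1.33. Klrd1 was apart in positive cells (4.2 and 3.6 CPM against 60.9 and 41.0, ratio 9.75) and overlapped in negative cells (21.1 and 9.0 against 30.0 and 19.1). Cells without a UMI can still express Il2ra, and whether these sizes differ beyond the spread between cultures was not tested.

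Tags 1 to 4, which share no cells with tags 5 to 8, were paired as 3 and 4 against 1 and 2, again with their levels known. Runx1 had 76.9 and 79.4 CPM in tags 1 and 2 and 38.2 and 39.3 in tags 3 and 4. Over the same 8829 genes, 342 were higher in tags 3 and 4 than in 1 and 2 (3.87%) and 241 lower (2.73%) by the same rule. Of the 235 genes higher in tags 7 and 8, 87 were lower in tags 3 and 4 (37.0% of the 235 and 36.1% of the 241) and 16 higher. Of the 108 lower genes, 60 were higher in tags 3 and 4 (55.6% of the 108 and 17.5% of the 342) and 3 lower. The median log2 difference of tags 3 and 4 over 1 and 2 was -0.51 for the higher genes, 0.79 for the lower genes and 0.04 for all genes. Across the 8829 genes, which are not independent, the differences had a Pearson r of -0.35 and a Spearman rho of -0.13, and all 8 tags shared 1 droplet run.

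Genes shown above differed in this respect. Cd81 (38.8, 42.1, 13.9 and 16.3 CPM in tags 1 to 4) and Cox4i2 (28.3, 29.9, 5.0 and 5.8) were lower in tags 3 and 4, and Cd3g (29.6, 13.5, 173.7 and 193.9) and Gzma (664.3, 562.7, 1816.2 and 1853.8) were higher there. Capg (20.3, 20.4, 15.8 and 16.6 CPM) and Meis1 (15.9, 17.0, 18.9 and 19.4) lay close together in all of tags 1 to 4. Bpifc, lower in tags 7 and 8, also lay between 24.4 and 27.1 CPM in tags 1 to 4.

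**Figure D5:**
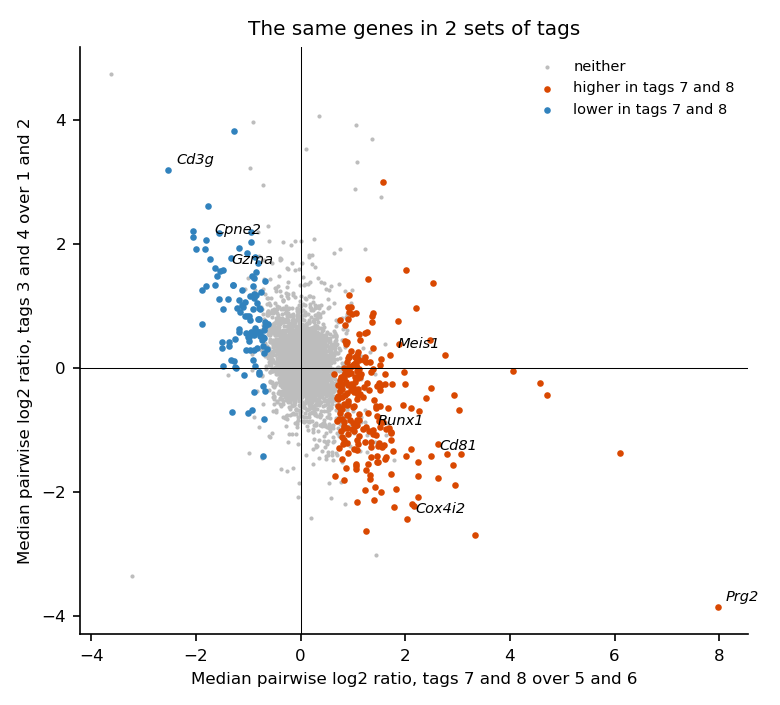
Each point is 1 of the 8829 genes. The horizontal axis is the median pairwise log2 ratio of tags 7 and 8 over 5 and 6, and the vertical axis that of tags 3 and 4 over 1 and 2. Orange points were higher and blue points lower in tags 7 and 8. Most blue points lie above 0 on the vertical axis, and more orange points lie below 0 than above it, at a median of -0.51.

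For the genes of this comparison the stretch of 250 bases before each annotated start was read for the letters TGTGGT on either strand (ACCACA on the other), the core that Runx proteins bind. RefSeq promoters of GRCm38.p6 were matched for 184 of the 235 higher and 79 of the 108 lower genes. The letters were present in 42 of 250 promoters of higher genes (16.8%), 24 of 109 of lower genes (22.0%) and 953 of 8919 of all genes measured (10.7%), and in 14.0% of all promoters of the table. Of the 30 genes with the largest ratios 24 were matched, and 4 held the letters: Clec12a, Gzma, Lck and Meis1. Counted by gene in the same way, 886 of the 7003 matched among all genes measured held them (12.7%). A match describes the sequence and is not evidence of binding. Gzma and Lck are shown because they hold the letters (in capitals, first base 50 and 58 bases before the start), with Cd81 and Cd3g, one described above for each direction, which do not hold them, each written 5′ to 3′ on the strand of its gene:
Gzma, chr13:113100982-113101231, minus strand: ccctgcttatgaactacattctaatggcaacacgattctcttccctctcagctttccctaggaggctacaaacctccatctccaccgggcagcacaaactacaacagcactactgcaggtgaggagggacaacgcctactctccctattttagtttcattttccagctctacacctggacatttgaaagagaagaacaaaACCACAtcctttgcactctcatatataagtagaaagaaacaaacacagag
Lck, chr4:129573642-129573891, minus strand: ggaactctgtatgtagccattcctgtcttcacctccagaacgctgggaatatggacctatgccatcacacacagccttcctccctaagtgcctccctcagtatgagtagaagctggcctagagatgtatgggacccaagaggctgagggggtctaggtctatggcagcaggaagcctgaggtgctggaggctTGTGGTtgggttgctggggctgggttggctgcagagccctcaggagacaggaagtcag
Cd81, chr7:143052500-143052749, plus strand: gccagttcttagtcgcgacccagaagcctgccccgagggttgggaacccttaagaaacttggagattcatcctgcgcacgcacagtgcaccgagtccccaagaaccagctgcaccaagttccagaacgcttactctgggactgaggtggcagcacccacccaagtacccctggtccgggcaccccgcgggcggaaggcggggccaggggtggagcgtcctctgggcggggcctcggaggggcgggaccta
Cd3g, chr9:44980432-44980681, minus strand: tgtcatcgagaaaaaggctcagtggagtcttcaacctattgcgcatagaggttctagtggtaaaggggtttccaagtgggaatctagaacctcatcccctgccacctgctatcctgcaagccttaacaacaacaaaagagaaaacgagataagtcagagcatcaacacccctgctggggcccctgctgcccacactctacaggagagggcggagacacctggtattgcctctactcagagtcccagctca
In Gzma the letters read ACCACA, the reverse strand of the core, and in Lck, at the first of its 2 annotated starts, TGTGGT. The second start of Lck did not hold the letters. Gzma and Lck were lower in tags 7 and 8, as was Cd3g, and Cd81 was higher. Meis1, which was higher and holds the letters, is not shown.

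In the second experiment the 8 tags cover 4 to 8 days of culture, and the same tag sequences need not mark the same cultures. Runx1 lay between 33.7 and 120.9 CPM there (median 58.2), so no tag of that experiment reached tags 7 and 8 of the first. Cd81 lay between 32.1 and 192.6 CPM, Capg between 21.4 and 138.0 and Cd3g between 20.9 and 742.6. For Cd81 and Capg the ranges thus held levels like those of tags 7 and 8.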

How the data were processed

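Tags 5 to 8 of experiment 1 are described. The authors deposited whole-number counts of UMIs per gene and cell and hashtag counts per cell, made with 10x Chromium version 3 chemistry per the labels' protocols. Cell Ranger 3.0.0 and the builds mm10 and GRCm38 are in the submitters' processing notes, while the filter that chose the barcodes is not given in the sources used here. Whether the deposited hashtag counts are reads or molecules is not given either.

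Of 9967 barcodes, 9332 passed the filter of at least 500 genes and under 10% mitochondrial UMIs, and 535 of these had no tag by the rule of 50 counts and 3 times the second tag. Cells with 2 strong tags fail that rule, and no other doublet caller was run. UMIs were summed per tag and scaled per 1e+06 UMIs. A level below 3 counts was set to 3 counts in ratios. Intervals for levels and ratios are exact at 95%. Python 3.11.15 with numpy 2.4.6, pandas 2.3.3 and scipy 1.17.1 was used, with Seurat 5.3.0 (HTODemux), edgeR 4.0.16 (TMM) and DESeq2 1.42.0 (size factors) for alternatives on R 4.3.3. Scripts were tested on simulated data.

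Tags without a known condition are not replicates of a group, and the sides were drawn with expression known, so the planned description gives no test, p-value or SD over tags. The members and gene lists were chosen with earlier results of these data known. Genes named are Runx1, Runx2, Runx3 and Cbfb, the 15 with the largest nearest-tag ratio each way among genes of at least 20 CPM, up to 4 of each of 21 lists by ratio, and members needed to describe a list. Slc39a8, Tmem109, Txn1, Iigp1, H2-Aa and S100a8 and other list members with values were chosen after their values were seen. Genes with a shared symbol (71 rows of 31053) were kept apart by identifier. Coordinates are those of RefSeq on GRCm38.p6.

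Alternatives were HTODemux at a quantile of 0.99, stricter tag and cell rules, leaving out cells with other lineages' markers, thinning each cell to 5000 UMIs, means over cells, other scalings, thresholds of 1 and 20 CPM, a ratio of 2 and each tag left out. 4 others were added after seeing the data.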

Additional observations from a re-analysis of the deposited data

How the results depend on the processing

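Without 1 tag the higher genes numbered 309 to 393 and the lower 124 to 180, since a side of 1 tag leaves fewer ratios to pass; the count of lower genes was 164 without tag 6, and the counts were 393 and 180 without tag 8. Without cells with markers of other lineages, which leaves 68 to 222 cells a tag, higher genes numbered 223 and lower genes 164, of which 100 and 53 were among the 235 and 108, and 999 genes differed by 1.5-fold between tags 5 and 6 and 1576 between tags 7 and 8; there the nearest-tag ratios of Gzmb and Hdc turned to 0.24 and 0.27. With Hbb-bt not counted among the markers, which left 322 to 916 cells a tag, 192 and 86 of the 235 and 108 were still called. Hdc then kept a ratio of at least 1.5, and Gzmb did not. The cause of the turn was not tested. Sparc turned to 0.26 at 1000 genes and 5% mitochondrial UMIs and to 0.68 in cells without an Il2ra UMI.

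A mean of at least 1 CPM gave 554 higher and 200 lower genes, of which 163 and 107 went the opposite way in tags 3 and 4, and 530 and 700 genes differed inside the sides (tags 5 against 6 and tags 7 against 8). A mean of at least 20 CPM gave 80 and 46, with 29 and 28 opposite, and 57 and 67 inside the sides. A ratio of 2 gave 95 and 29, with 30 and 19 opposite. Means over cells gave 378 higher genes. Thinning to 5000 UMIs gave 423 and 478 genes inside the sides. Il2ra-positive cells gave 368 higher genes, 37 of the lower genes opposite, and 604 and 813 inside the sides, and Il2ra-negative cells 1157 and 1300; fewer UMIs stand behind each value there.

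With TMM the counts were 248 and 102 and with DESeq2 size factors 247 and 102. Of 53 called genes named by the rule, 38 to 53 kept a ratio of at least 1.5, by setting. No paired analysis was possible because the tags carry no replicate number and the labels pair none of them. Depth limits the genes under 5 CPM, and 2 cultures a side show little of the spread between cultures.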
